A study of Rattus norvegicus with 19 samples.

Results

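Transcriptionally active putative enhancers (TAPEs) in gene deserts were defined by distance alone, as TAPEs that the deposited table pairs with at least 2 gene symbols and whose nearest listed start site lies at least 250 kb from the TAPE centre. They number 5196 of 27538 TAPEs, and are set beside the 20826 other TAPEs with at least 2 genes. The remaining 1516 TAPEs have 1 gene and were left aside. A TAPE is a stretch of open chromatin, extended by 500 bp on each side, that lies outside genes and carries RNA on both strands. The cultures were primary neurons of Sprague-Dawley rat embryos, whose total RNA, depleted of ribosomal RNA, was sequenced with its strand kept. All cultures were taken at embryonic day 18 and kept for 11 days in vitro. They came from cortex, hippocampus or striatum, and received vehicle (Neurobasal medium) or potassium chloride (KCl) for 1 h. There were 3 libraries of cortex vehicle, 3 of cortex KCl, 3 of hippocampus vehicle, 3 of hippocampus KCl, 4 of striatum vehicle and 3 of striatum KCl. No genetic change or other drug separates the groups. The KCl concentration is given as 25 mM with the samples and as 10 mM with the series, and the values cannot settle which was used.

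Enhancers are regulatory DNA elements that raise transcription of genes on the same chromosome, in many cases across long distances. Active enhancers are transcribed in both directions into short, unstable enhancer RNA (eRNA), so that RNA at open chromatin marks an element in use. Long intervals without protein-coding genes, known as gene deserts, often flank genes of brain development and cell adhesion, and hold conserved enhancers. KCl depolarizes neurons, opens voltage-gated calcium channels and sets off the transcription of activity-dependent genes.

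Library totals ran from 46.4 to 72.5 M reads, of which 47431 to 83272 lay in TAPEs, and desert TAPEs held 12.9 to 15.5% of the reads in TAPEs. Levels are given as CPKM, the reads per kilobase of TAPE and 1 M reads of the library. Cortex vehicle replicate 3 carries a cortical title and a striatal tissue label. It was grouped by title, and over the 131 region-dependent desert TAPEs its profile had r = 0.89 with the mean of the other cortical libraries and r = 0.18 with the striatal mean. All 19 libraries were closest to the region of their own title, although these TAPEs were chosen by a test that included the library. Without it, 2 desert TAPEs were called for KCl in cortex, 4 for KCl over all regions and 130 for region. Of the marker genes whose profiles could be recovered, 6 of 6 for striatal projection neurons (Ppp1r1b, Drd1 and Drd2 among them) were highest in striatum, 3 of 3 for cortical projection neurons in cortex, and Prox1 in hippocampus. Glial markers also moved with region, since none of 4 astrocyte, 6 oligodendrocyte and 3 microglia markers was highest in striatum. The 5 recovered genes listed for interneurons (Gad1, Gad2, Sst, Npy and Dlx1) were all highest there. Whether these 5 genes separate interneurons from striatal projection neurons was not tested. The part of these cell types in the regional differences below was not tested either. In bulk cultures such as these, fewer cells of a type and less RNA per cell cannot be told apart.

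Desert TAPEs were weakly transcribed, with lower levels than TAPEs nearer to genes. The median desert TAPE had a mean level of 0.00609 CPKM over the 19 libraries, against 0.00744 CPKM for the others. This corresponds to 12 reads summed over all libraries against 15, with reads in a median of 5 libraries against 6. Fewer than 10 reads in all were found for 38.8% of desert TAPEs and for 32.7% of the others. A mean level of at least 0.05 CPKM, the lowest at which TAPEs were tested, was reached by 191 desert TAPEs (3.68%) and by 1635 of the others (7.85%), and 0.1 CPKM by 97 (1.87%) and 741 (3.56%). The other 5005 desert TAPEs were too shallow to test. Median lengths were 1778 and 1822 bp.

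**Figure D1:**
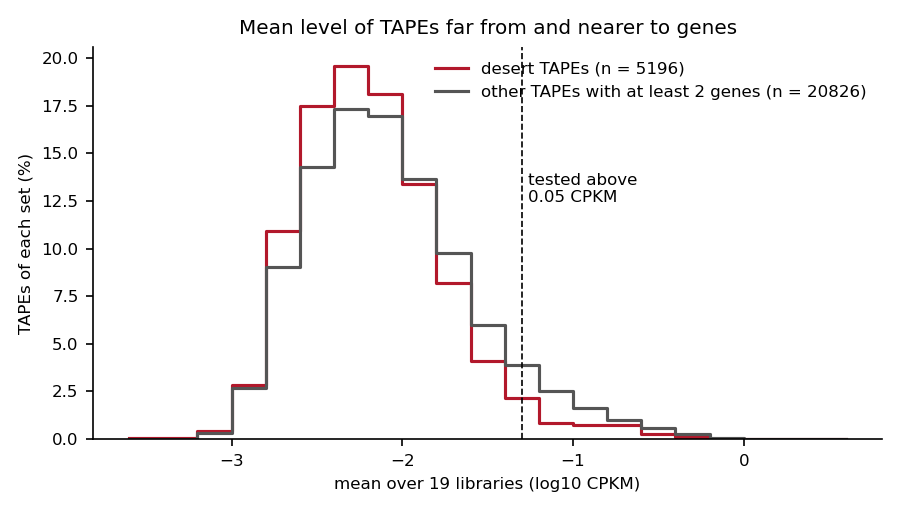
Distribution of the mean level over 19 libraries (log10 CPKM, horizontal axis) for 5196 desert TAPEs (red) and 20826 other TAPEs with at least 2 genes (grey), as percent of each set (vertical axis). The desert curve lies to the left, and a smaller share of it passes the dashed line at 0.05 CPKM.

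Few elements held most of the reads, among desert TAPEs and others alike. The 10% of desert TAPEs with most reads held 61.4% of all reads in desert TAPEs, and the same share of the other TAPEs held 61.8% of theirs. For the top 1% the values were 29.2% and 22.7%. A single desert element took 5.01% of the reads in desert TAPEs, with 8586 of 171320 reads. It lies at chr8:28841568-28844421 (Rn6, as are all positions), in the 0.999 Mb between the start sites of Spata19 and Opcml, and ranked 1 of all 27538 TAPEs. The annotation places it in intergenic sequence, 388 kb from Spata19, a gene of sperm mitochondria, and 611 kb from Opcml, which encodes a cell adhesion molecule of the neuronal surface.

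At this element the level lay between 4.89 and 5.69 CPKM in the 6 hippocampal libraries (median 5.50), between 2.09 and 3.26 CPKM in the 6 cortical ones (median 2.82) and between 0.168 and 0.363 CPKM in the 7 striatal ones (median 0.247). The ranges of the 3 regions did not overlap, and the regional difference passed the limma F-test (adjusted p = 9.88e-23). KCl did not shift it detectably, with a log2 difference over the regions of -0.21 (limma adjusted p = 0.147). The next by level was chr17:86841743-86843065, 433 kb from Etl4, where cortex held 0.623 ± 0.083 CPKM (SD, n = 6), hippocampus 0.529 ± 0.099 (n = 6) and striatum 0.701 ± 0.166 (n = 7). It ranked 16 of all TAPEs, and its regional difference missed the threshold (limma adjusted p = 0.11). The third, chr1:195691603-195692904, ranked 23 and lies 403 kb from LOC691716, with 0.877 ± 0.136 CPKM in striatum against 0.405 ± 0.066 in cortex and 0.434 ± 0.080 in hippocampus (limma adjusted p = 4.13e-07).

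The surroundings of desert TAPEs are given for description, since the rules that chose the TAPEs fix part of them. A median of 5 listed genes lay within 1 Mb, against 13, where the distance rule leaves no listed start site within 250 kb. The TAPE was upstream of its nearest start site, by that gene's strand, in 47.5% of cases against 63.3%. TAPEs had to lie outside genes, which removes many places downstream of a near start site. How much of this gap follows from that was not tested. Distance to a start site is not distance to a gene, since the end of a gene body lay within 250 kb of 1049 desert TAPEs (20.2%) and within 50 kb of 138 (2.66%). No TAPE of either set overlapped a gene body of the deposited table, as the definition of a TAPE requires. Desert TAPEs made up between 9.02% of the TAPEs of chromosome 10 and 28.4% of those of chromosome 19 among the autosomes and X, and the X chromosome held 176 of them, none with enough reads to test.

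Over all 5196 desert TAPEs, the nearest gene was more often on the lists of forebrain transcription factors, adhesion genes and channels than for other TAPEs. Forebrain transcription factors (Nr2f1, Sox11 and Mef2c among the frequent ones) were nearest for 197 desert TAPEs (3.79%) and for 1.51% of the others. Genes of synaptic adhesion and axon guidance, such as the semaphorin receptor Nrp1, the netrin receptor Unc5d and the cadherin Cdh7, were nearest for 179 (3.44%) and 0.811%. Ion channels and neurotransmitter receptors were nearest for 133 (2.56%) and 1.20%, with 34 of these at the potassium channel gene Kcna4. Activity-induced genes were nearest for 51 (0.982%) and 0.980%, and glial genes for 4 (0.0770%) and 0.245%. Many desert TAPEs share a gene, with 36 different transcription factor genes and 38 adhesion genes behind these counts, so the shares are descriptions and were not tested. Among the 191 desert TAPEs with enough reads to test, transcription factors were nearest for 3 (1.57%), against 1.41% of the other tested TAPEs. Adhesion genes were nearest for 8 (4.19%) against 0.979%, and channels and receptors for 2 (1.05%) against 0.550%.

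The 5196 desert TAPEs lay in 830 intervals between neighbouring listed start sites. The 821 intervals bounded on both sides had a median width of 0.999 Mb, from 0.503 to 6.49 Mb. The median interval held 4 desert TAPEs, 139 held 1, and 166 held 10 or more, which together accounted for 2683. The fullest, between Itsn2 and Tdrd15 on chromosome 6, held 43 in 2.90 Mb. The deposited table leaves out genes without reads and may lack others, as the hippocampal markers Zbtb20 and Dock10 were not listed. A coding gene that was not listed, expressed or not, may thus lie inside an interval. In the RefSeq gene order of another rat assembly (GRCr8) 306 of the 659 intervals whose flanking genes could be matched held no protein-coding gene, while 286 held a named one. Gene order can also differ between the assemblies, as where 707 coding genes fall between Zkscan2 and Snrpn, which lie 1.64 Mb apart in Rn6, so the RefSeq counts need not hold in Rn6. Of 4178 desert TAPEs in matched intervals, 1784 lay where the RefSeq order has a named coding gene and 1962 where it has none. The rest lay where it has only unnamed ones. Where a coding gene is counted, a gene closer than the listed one may exist. The count did not leave out listed genes, however, which lie outside the interval in Rn6. The Itsn2 to Tdrd15 interval has 10 coding genes in the RefSeq order. Wdcp among them is listed, 535327 bp from a TAPE that is 323720 bp from Itsn2.

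Most tested desert TAPEs differed between the cultures of the 3 regions. Of 191, 131 differed between cortex, hippocampus and striatum (68.6%; limma F-test with both treatments pooled, two-sided, Benjamini-Hochberg adjusted p under 0.05), against 48.8% of all 1870 tested TAPEs and 45.6% of the others with at least 2 genes. The gap was present at lower levels, with 64.9% of 94 desert TAPEs between 0.05 and 0.1 CPKM against 40.8% of 894 others, and at higher levels, with 72.2% of 97 against 51.4% of 741. A TAPE can pass the filter on its mean through the one region where it is high, so these shares describe the tested TAPEs and not all 5196. The libraries are called biological samples, but nothing at hand says whether they came from separate litters, so p-values measure the spread between these samples.

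Region-dependent TAPEs counted as selective where 1 region exceeded both others, each at an unadjusted limma p under 0.05. By this rule 28 of the 191 desert TAPEs were selective for cortex (14.7%, against 5.67% of all tested TAPEs), 17 for hippocampus (8.90%, against 6.74%) and 33 for striatum (17.3%, against 16.7%). Among the other TAPEs with at least 2 genes the shares were 4.34, 6.67 and 16.6%. The desert TAPEs thus stood furthest from the rest in cortex, a difference in shares that was not itself tested.

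The most cortex-selective desert TAPEs sat together on chromosome 13. Of the 8 tested desert TAPEs whose nearest listed gene was Nuf2, which encodes a kinetochore component, 7 were selective for cortex, and the 4 of them described here lay 471 to 544 kb from its start site. The clearest was chr13:87356658-87358101, at 0.105 to 0.257 CPKM in the 6 cortical libraries (median 0.193) and at most 0.0239 CPKM in the 6 hippocampal ones (limma adjusted p = 1.78e-10). No read was found there in the 7 striatal libraries. Taken as independent, 3 reads over the region would give 0.00544 CPKM, a limit that is too low because reads came in pairs. Cortical and hippocampal ranges did not overlap.

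Its neighbours followed the same order. At chr13:87302516-87304717 the level was 0.216 ± 0.082 CPKM in cortex (SD, n = 6), 0.037 ± 0.030 in hippocampus (n = 6) and 0.00249 ± 0.00658 in striatum (n = 7). At chr13:87335505-87337435 it was 0.179 ± 0.066, 0.032 ± 0.041 and 0.00284 ± 0.00750 CPKM in the same order. One of the 6 hippocampal libraries there, at 0.101 CPKM, exceeded the lowest cortical library at 0.0871 CPKM. At chr13:87375138-87376601 the cortical libraries themselves spread from 0.0115 to 0.304 CPKM, so that the lowest of them fell among the hippocampal values, which reached 0.0242 CPKM. The eighth tested TAPE nearest to Nuf2, chr13:87451399-87453323, went the other way, with 0.081 ± 0.041 CPKM in striatum against 0.038 ± 0.035 in cortex, and missed the threshold (limma adjusted p = 0.0657).

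The 4 most hippocampus-selective desert TAPEs lay on 3 chromosomes. At chr1:136553458-136555068, 460 kb from Akap13, an anchoring protein of protein kinase A, the 6 hippocampal libraries held 0.0543 to 0.197 CPKM (median 0.172), the cortical ones at most 0.0454 and the striatal ones at most 0.0107 (limma adjusted p = 2.01e-08). The RefSeq order puts Sv2b, a synaptic vesicle protein, in the same interval. At chr2:13064105-13066306, 528 kb from the cyclin gene Ccnh, hippocampal libraries held 0.360 to 0.506 CPKM, cortical ones 0.102 to 0.244 and striatal ones 0.0335 to 0.0870, with no overlap (limma adjusted p = 1.32e-09). The remaining pair differed in how far hippocampus stood apart. At chr10:9915162-9916950, 541 kb from Rbm25l1, hippocampal libraries held 0.119 to 0.225 CPKM and cortical ones at most 0.0747, whereas at chr2:224288460-224289735, 434 kb from Rwdd3, the lowest hippocampal library (0.104 CPKM) fell below the highest cortical one (0.119 CPKM).

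The 4 desert TAPEs most selective for striatum, by log2 difference, also lay on 3 chromosomes. At chr4:4943207-4944903, 471 kb from Dpp6, which encodes an auxiliary subunit of A-type potassium channels, the 7 striatal libraries held 0.560 to 0.734 CPKM (median 0.668). The 6 cortical libraries held at most 0.0496 CPKM and the 6 hippocampal ones at most 0.0104 CPKM (limma adjusted p = 1.22e-16). The interval from Dpp6 to Actr3b, 1.17 Mb wide, held no coding gene in the RefSeq order and 5 desert TAPEs, of which this one alone was tested.

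A pair of neighbouring elements on chromosome 16, chr16:82545047-82547309 and chr16:82547803-82549490, lay 258 and 261 kb from Spaca7, a gene of the sperm acrosome. The RefSeq order places Sox1, a transcription factor of neural progenitors, within the same interval. The first held 0.319 ± 0.040 CPKM in striatal (SD, n = 7), 0.020 ± 0.020 in cortical (n = 6) and 0.016 ± 0.020 in hippocampal libraries (n = 6). The second held 0.300 ± 0.060, 0.0061 ± 0.0095 and 0.0086 ± 0.0101 CPKM in the same order (limma adjusted p = 2.05e-11 and 6.74e-13). At both, every striatal library exceeded every cortical and hippocampal one. The fourth, chr13:106108124-106109300, 355 kb from the orphan nuclear receptor gene Esrrg, ranged from 0.209 to 0.616 CPKM in striatum and reached 0.120 CPKM elsewhere (limma adjusted p = 8.52e-09).

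**Figure D2:**
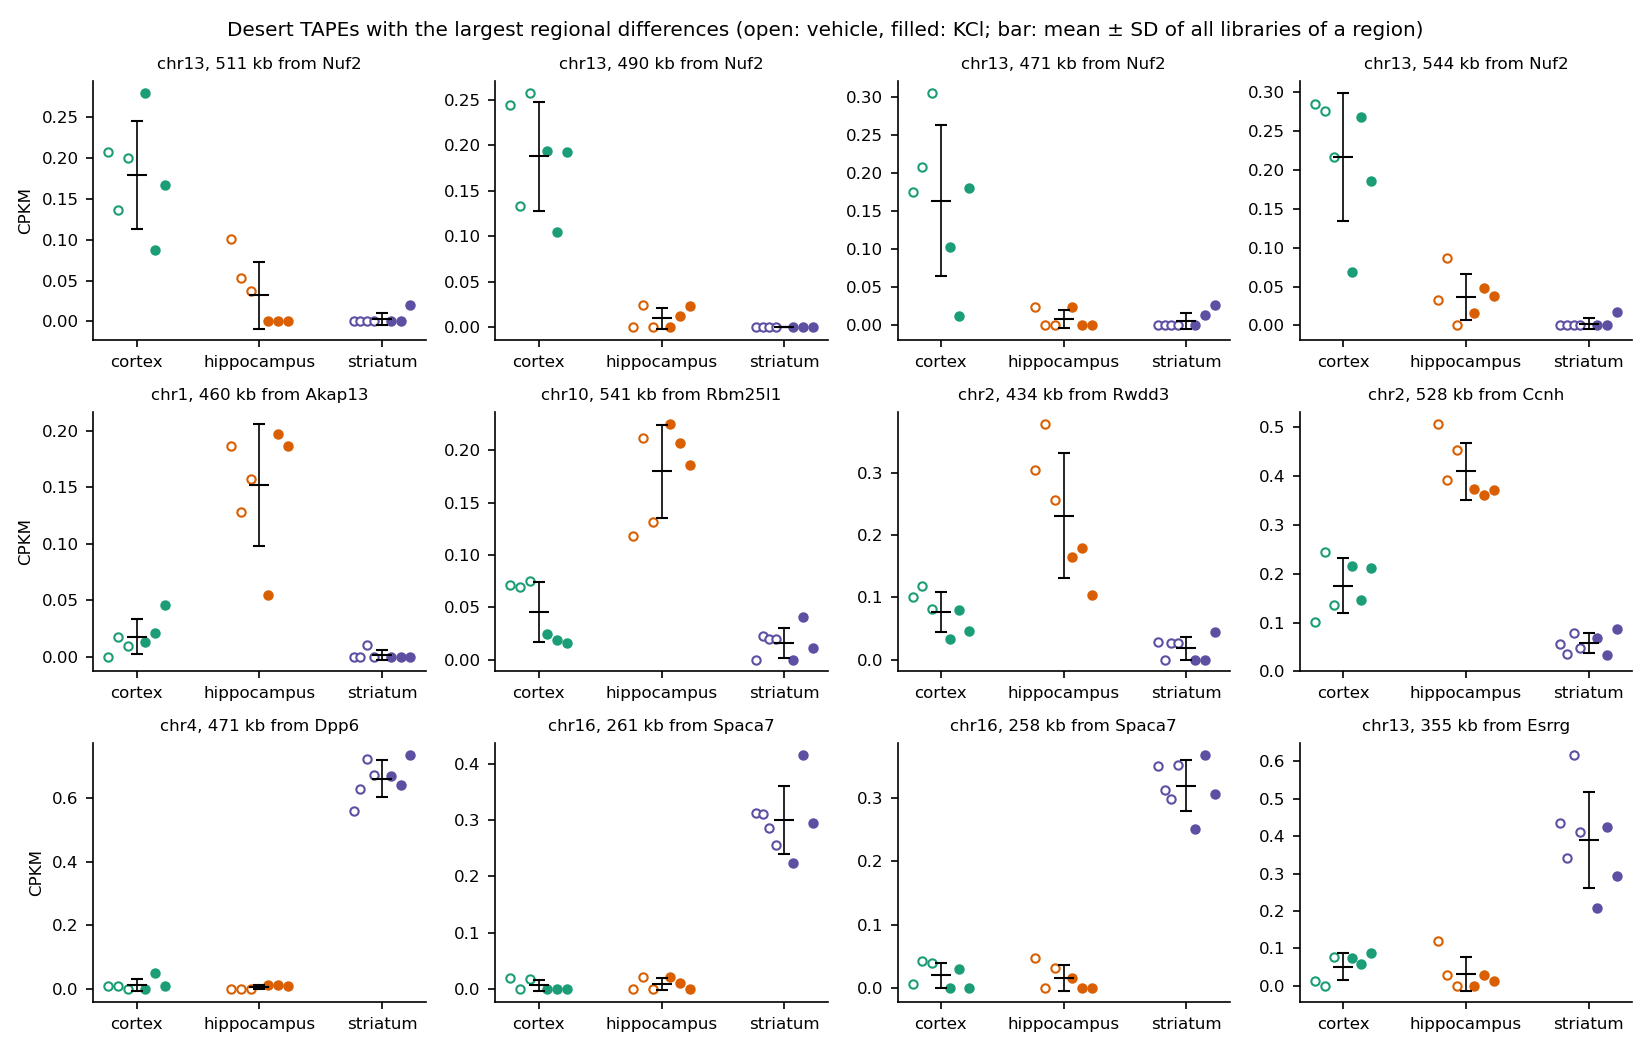
Level (CPKM, vertical axes) in every library of the 4 desert TAPEs with the largest log2 difference for cortex (top), hippocampus (middle) and striatum (bottom), with open points for vehicle, filled points for KCl and bars for the mean ± SD of a region. Points of the named region lie above those of the other regions, with the overlaps of single libraries described in the text.

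The most remote tested desert TAPEs had different profiles. The tested desert TAPE farthest from a listed start site, chr17:37608252-37611716, lay 838 kb from Gpr50, a relative of the melatonin receptors, and was low in striatum, with 0.0698 to 0.160 CPKM against 0.274 to 0.521 in cortex and 0.283 to 0.439 in hippocampus (limma adjusted p = 1.11e-07). The second, chr4:141712795-141714276, lay 827 kb from Edem1, a gene of protein quality control in the endoplasmic reticulum, and was selective for cortex, with 0.0930 to 0.217 CPKM there, at most 0.0674 in hippocampus and at most 0.0249 in striatum (limma adjusted p = 5.57e-08). TAPEs at the limit of 250 kb are given for description. Just inside, chr9:110475475-110477667 (251.1 kb from the ephrin gene Efna5) held 0.154, 0.122 and 0.114 CPKM on average in cortex, hippocampus and striatum, although the end of Fbxl17 lies 39.0 kb from it. Just outside, chr5:172008697-172010801 (249.8 kb from Ttc34) held 0.133, 0.0558 and 0.0719 CPKM, and chr19:42428365-42431675 (249.0 kb from Pmfbp1) held 0.549, 0.176 and 0.830 CPKM.

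KCl changed few desert TAPEs. In cortex 2 of 191 passed the limma test (KCl against vehicle within the region, two-sided, adjusted p under 0.05), both higher after KCl, against 0.321% of all tested TAPEs. In striatum 1 passed, higher after KCl, against 1.23% (0.802% higher). In hippocampus none passed, against 0.0535%. There, 38 of the 191 had an unadjusted p under 0.05 (19.9%, 11 higher and 27 lower), against 13.3% of all tested TAPEs. Elsewhere this share was lower among desert TAPEs, with 8.90% against 10.4% in cortex and 6.81% against 15.1% in striatum. In the fit over all regions it was 16.2% against 23.6%. Over the regions together, with region as a covariate, 6 passed, 3 higher and 3 lower, against 6.84% of all tested TAPEs (1.66% higher and 5.19% lower). These numbers are small, and no share is read from them.

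The general level moved slightly down with KCl. The median log2 difference between KCl and vehicle over the regions was -0.11 for tested desert TAPEs and -0.13 for all tested TAPEs. It was -0.09 for both in cortex, -0.17 and -0.16 in hippocampus, and -0.11 and -0.17 in striatum. With each library centred on its own median TAPE, the desert median was 0.02, and of the 6 calls the 3 higher ones remained while the 3 lower ones did not pass.

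The strongest response was at chr12:50950307-50953159, a TAPE of 2853 bp that lay 298 kb from Mn1, which encodes a transcriptional coregulator. In cortex its level was 0.141, 0.039 and 0.089 CPKM in the vehicle libraries and 0.710, 0.654 and 0.753 CPKM in the KCl libraries. In striatum it was 0.265, 0.275, 0.163 and 0.194 CPKM with vehicle and 0.847, 0.588 and 0.799 CPKM with KCl. In hippocampus it was 0.012, 0.012 and 0.000 CPKM with vehicle and 0.123, 0.074 and 0.093 CPKM with KCl. KCl and vehicle libraries did not overlap in any region, and the KCl level in hippocampus stayed below the vehicle level in striatum.

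The mean rose 7.91-fold in cortex and 3.32-fold in striatum. On the log2 scale with 0.05 CPKM added, which understates changes of low TAPEs, the difference was 2.51 (SE 0.28, limma adjusted p = 9.08e-05) in cortex, 1.54 (SE 0.21, adjusted p = 0.00256) in striatum and 1.33 (SE 0.27, adjusted p = 0.154) in hippocampus, and 1.78 (SE 0.18, adjusted p = 3.48e-08) over the regions. A difference of the response between regions was not shown (limma interaction, adjusted p = 0.436). The striatal call did not pass without striatum KCl replicate 7 (adjusted p = 0.0715), and the cortical one passed without each library in turn. With no filter on low levels, so that all TAPEs entered the adjustment, neither call passed (adjusted p = 0.711 in cortex and 0.379 in striatum), while the call over the regions did (adjusted p = 2.65e-08).

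A second TAPE of the same interval also rose. At chr12:50916240-50918960, 333 kb from Mn1, the level went from 0.012, 0.020 and 0.022 to 0.095, 0.136 and 0.086 CPKM in cortex, from 0.013 in all 3 to 0.039, 0.039 and 0.049 CPKM in hippocampus, and from 0.052, 0.074, 0.032 and 0.038 to 0.056, 0.217 and 0.113 CPKM in striatum. The groups overlapped in striatum but not in cortex or hippocampus. The log2 difference over the regions was 0.83 (SE 0.18, limma adjusted p = 0.00372), and no single region passed on its own (adjusted p from 0.197 to 0.333).

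Of the tested TAPEs of this interval, these 2 were the ones called. Between the start sites of Cryba4, a lens crystallin gene, and Mn1, 0.842 Mb apart, lay 18 desert TAPEs, 4 of them tested. The other 2, chr12:50928762-50929985 and chr12:50933824-50937001, lie between the responsive ones, with log2 differences of -0.11 (SE 0.23, limma adjusted p = 0.835) and 0.01 (SE 0.17, adjusted p = 0.989). Both were selective for striatum, with means of 0.215 and 0.121 CPKM there, 0.0859 and 0.0381 in cortex and 0.0339 and 0.00725 in hippocampus. The RefSeq order lists no coding gene in this interval and the long noncoding RNA gene Miat among 9 noncoding ones.

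In cortex the other called TAPE was chr18:14755646-14759686, 286 kb from the start site of Dtna, a component of the dystrophin complex, with the gene's end 100 kb away. Its level was 0.171, 0.082 and 0.154 CPKM with vehicle and 0.491, 0.429 and 0.398 CPKM with KCl in cortex, a rise of 3.24-fold. In hippocampus it was 0.219, 0.230 and 0.269 against 0.346, 0.240 and 0.276 CPKM, and in striatum 0.105, 0.095, 0.077 and 0.124 against 0.084, 0.078 and 0.057 CPKM. The groups were apart in cortex and overlapped in the other regions.

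The cortical log2 difference at this TAPE was 1.43 (SE 0.26, limma adjusted p = 0.0191), set beside 0.21 in hippocampus and -0.29 in striatum, and the interaction with region missed the threshold (limma adjusted p = 0.0748). The cortical call was lost without cortex vehicle replicate 2 and without cortex KCl replicate 1, 2 or 3, with adjusted p-values up to 0.132, and without the filter on low levels (adjusted p = 0.711). The RefSeq order places 6 coding genes, Nol4 and Asxl3 among them, between Dtna and Mep1b, so a coding gene may lie nearer than Dtna.

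The third higher call over the regions was chr1:24855826-24857320, 252 kb from 1700020N01Rik. Cortical levels went from 0.021, 0.046 and 0.030 to 0.115, 0.045 and 0.059 CPKM, hippocampal ones from 0.083, 0.058 and 0.121 to 0.117, 0.283 and 0.201 CPKM, and striatal ones from 0.024, 0.067, 0.092 and 0.069 to 0.101, 0.136 and 0.115 CPKM. Only in striatum were the groups apart, and the log2 difference of 0.66 (SE 0.18, limma adjusted p = 0.0232) did not pass without hippocampus KCl replicate 2 (adjusted p = 0.0526).

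The 3 TAPEs that were lower after KCl changed by less. At chr15:36019803-36021812, 452 kb from the granzyme gene Gzmbl2, levels fell from 0.606, 0.521 and 0.591 to 0.515, 0.301 and 0.393 CPKM in cortex, from 0.651, 0.583 and 0.433 to 0.348, 0.421 and 0.315 CPKM in hippocampus, and from 0.595, 0.922, 0.824 and 0.834 to 0.770, 0.495 and 0.362 CPKM in striatum. The log2 difference over the regions was -0.53 (SE 0.13, limma adjusted p = 0.0075, or 0.0663 with centred libraries), and the groups overlapped in striatum only. At chr12:108255-109447, 395 kb from the DNA repair gene Brca2 and close to the start of the chromosome, it was -0.56 (SE 0.16, adjusted p = 0.0287, or 0.124 centred).

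This second lower call was lost without cortex vehicle replicate 3, hippocampus vehicle replicate 2, hippocampus KCl replicate 2 or striatum KCl replicate 7 (adjusted p up to 0.0595). At chr14:110304627-110307248, 370 kb from Fancl, a ubiquitin ligase of the Fanconi pathway, the difference was -0.43 (SE 0.13, limma adjusted p = 0.039, or 0.225 centred). It was lost in 12 of the 19 fits that left out 1 library, each of them among the cortex vehicle replicate 3, cortex KCl replicates 2 and 3, hippocampus vehicle replicates 1 and 2, hippocampus KCl replicates 1 and 2, striatum vehicle replicates 2, 4 and 6 and striatum KCl replicates 5 and 7 (adjusted p up to 0.0761).

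**Figure D3:**
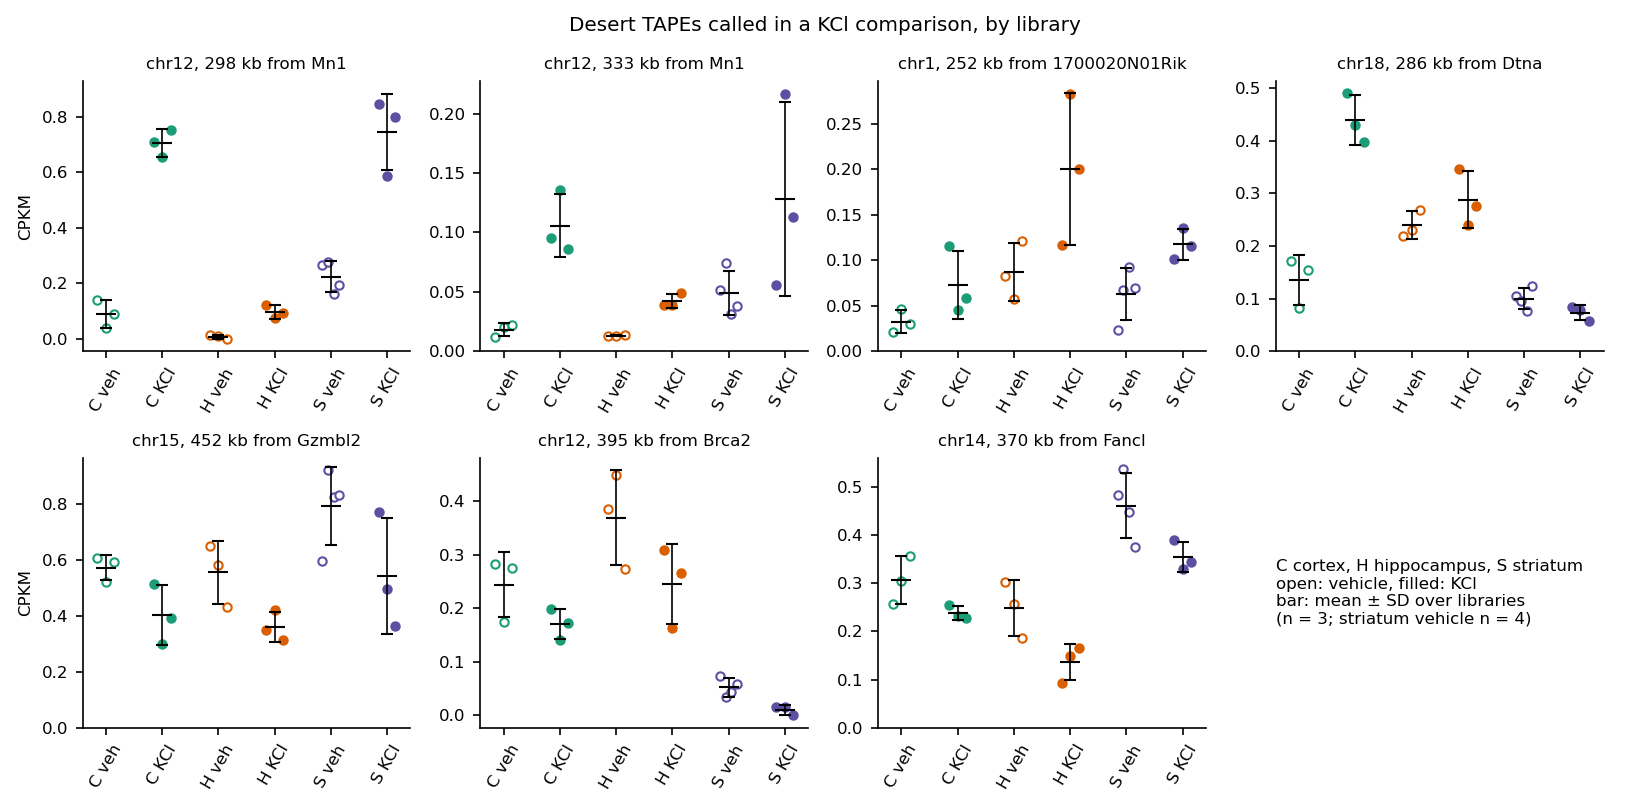
Level (CPKM, vertical axes) of the 7 desert TAPEs called in a KCl comparison, by region and treatment, with 1 point a library, open for vehicle and filled for KCl, and bars for the mean ± SD. At the TAPE 298 kb from Mn1 the cortical KCl libraries hold 0.654 to 0.753 CPKM and the vehicle libraries at most 0.141 CPKM, while the 3 lower TAPEs (bottom) show smaller steps.

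No desert TAPE passed limma's interaction test for a KCl response that differs between regions, against 0.0535% of all tested TAPEs. An unadjusted p under 0.05 was found for 21 of 191 (11.0%), against 8.24% of all tested TAPEs. The count became 1 with a filter at 0.1 CPKM, 1 with a pseudocount of 0.1 and 2 with voom on the recovered reads. The smallest p after the Dtna TAPE was at chr12:102549-104083, 401 kb from Brca2. There the log2 difference was 1.40 in hippocampus (0.012, 0.045 and 0.012 against 0.114, 0.161 and 0.141 CPKM) and -0.60 in cortex (0.157, 0.144 and 0.213 against 0.126, 0.044 and 0.133 CPKM), with an adjusted interaction p of 0.171. In hippocampus, the smallest p-values belonged to the Mn1 TAPE and to chr13:87335505-87337435 near Nuf2, where 0.101, 0.054 and 0.038 CPKM with vehicle stood against no read in the 3 KCl libraries (log2 difference -1.15, limma adjusted p = 0.154).

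Desert TAPEs of the same interval were more alike than those of different intervals, though not in every interval. Over the 19 libraries, the 249 pairs of tested desert TAPEs within an interval had a median r of 0.43, and 43.8% exceeded 0.5. The 17896 pairs from different intervals had a median r of 0.03, with 14.1% above 0.5. Pairs under 20 kb apart had a median of 0.51 and those farther apart of 0.34. Of the 39 intervals with at least 2 tested desert TAPEs, 12 had a median pairwise r above 0.5, 22 between 0 and 0.5, and 5 under 0. Pairs share libraries and depth, so these values are descriptive, and whether close TAPEs belong to the same transcript was not tested. Of 16 intervals with at least 2 region-selective TAPEs, 10 had all of them selective for the same region (29 TAPEs) and 6 mixed regions.

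Intervals with many tested TAPEs ranged from a shared profile to none. The 6 tested between Uxs1 and Dazl on chromosome 9 had a median pairwise r of -0.14 (from -0.66 to 0.85), and the 10 tested before Brca2 at the start of chromosome 12 had 0.26 (from -0.36 to 0.94). Both intervals were named after their values were seen. On chromosome 7, the 0.807 Mb between LOC102554748 and Arl13b, a gene of primary cilia, held 33 desert TAPEs. Of the 11 tested there, 9 were region-dependent, and all 9 had their lowest mean in striatum. None was selective, as no region met the rule of exceeding both others at an unadjusted p under 0.05. The highest, chr7:699758-702587, reached 0.431 ± 0.186 CPKM in cortical (SD, n = 6), 0.473 ± 0.072 in hippocampal (n = 6) and 0.197 ± 0.055 in striatal libraries (n = 7; limma adjusted p = 3.11e-05). The 11 lay between 288 and 382 kb from the start site of LOC102554748, and their median pairwise r was 0.51.

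On chromosome 1, between Snurf and LOC691716, all 6 desert TAPEs were tested, and 5 were selective for striatum. The median pairwise r of the 6 was 0.57. Snurf and Snrpn belong to the imprinted locus of the Prader-Willi region, and between Snurf and Ube3a the RefSeq order lists 336 noncoding genes, the small nucleolar RNA genes Snord64 and Snord107 among them. The steps were moderate, such as 0.348 ± 0.069 CPKM in striatum against 0.163 ± 0.025 in cortex and 0.198 ± 0.048 in hippocampus at chr1:195699154-195702526 (limma adjusted p = 0.000195). The sixth, chr1:195427251-195428499, held 0.203 to 0.247 CPKM in all 3 regions on average (limma adjusted p = 0.579).

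**Figure D4:**
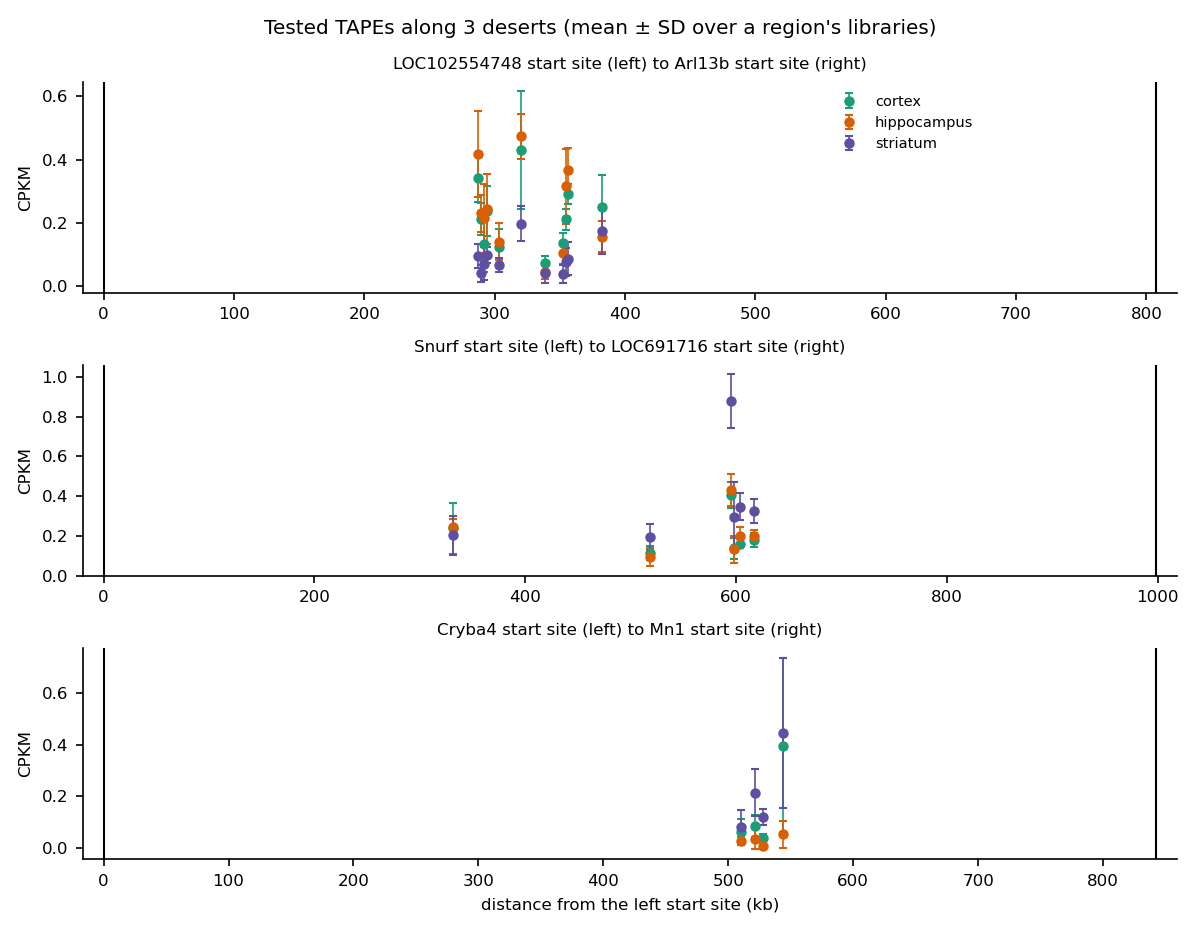
Mean level ± SD (CPKM, vertical axes) of the tested desert TAPEs in cortex (green, n = 6), hippocampus (orange, n = 6) and striatum (purple, n = 7), by distance from the left start site (kb, horizontal axes), in 3 intervals named in the text, from LOC102554748 to Arl13b, from Snurf to LOC691716 and from Cryba4 to Mn1. The tested TAPEs sit in clusters, with striatum lowest on average for the 9 region-dependent TAPEs of chromosome 7 and highest for 5 of the 6 between Snurf and LOC691716.

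Correlation with genes was described from the deposited Pearson r between TAPE and gene levels over the 19 libraries. Of 34743 pairs of a desert TAPE and a gene, 5.62% had r above 0.5 and 2.79% had r under -0.5. For the other TAPEs, pairs of at least 250 kb gave 4.88% and 2.81%, and closer pairs gave 6.36% and 2.29%. Among tested desert TAPEs the share above 0.5 was 18.4% of 1242 pairs and the share under -0.5 was 14.4%, against 9.99% and 7.36% for other tested TAPEs at the same distances. High values of both signs were thus more frequent, as were region-dependent TAPEs in this set.

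The highest correlations of tested desert TAPEs over all libraries were not matched within the regions. The highest among them was between chr13:106109493-106111927 and Esrrg, 353 kb away, at r = 0.97 over all libraries, but -0.73 within cortex, -0.50 within hippocampus and -0.42 within striatum. The neighbouring TAPE at 355 kb had r = 0.91 with Esrrg, and -0.08, 0.64 and 0.20 within the regions. The chromosome 16 pair had r = 0.97 and 0.95 with Ankrd10 at 660 and 657 kb, and between 0.06 and 0.35 within regions.

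The lowest correlations of tested desert TAPEs were of the same kind. The chromosome 8 TAPE had r = -0.97 with Igsf9b, a synaptic adhesion gene 490 kb away, and -0.59, 0.41 and 0.63 within cortex, hippocampus and striatum. Its highest positive r was with Opcml (0.87 over all libraries, and -0.15, 0.53 and 0.74 within the regions). The TAPE nearest Esrrg had r = -0.94 with the growth factor gene Tgfb2 at 970 kb, and -0.15, -0.69 and 0.12 within the regions. At the chromosome 8 TAPE the libraries of the 3 regions form separate clusters. At the TAPE nearest Esrrg striatum was high, with 0.791 CPKM on average, against 0.153 in cortex and 0.121 in hippocampus. A pooled r alone does not separate such regional means from variation within regions. With the regional means removed, r was -0.11 with Igsf9b and -0.07 with Tgfb2.

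A few pairs were high in every region, that of the Mn1 TAPE with Mn1 first among them. Its r with Mn1 was 0.86 over all libraries and 0.97, 0.91 and 0.96 within the 6 cortical, 6 hippocampal and 7 striatal libraries. Spearman's rho was 0.92, r stayed between 0.83 and 0.88 without each library in turn, and it was 0.78 without the 2 libraries farthest from the median level. The second responsive TAPE of the interval had r = 0.68 with Mn1, and 0.92, 0.84 and 0.54 within the regions, but about the same r with Tfip11 (0.68, and 0.86, 0.71 and 0.45 within the regions). Of the 220 pairs of tested desert TAPEs with r above 0.5 and a value in all 3 regions, 9 exceeded 0.5 in each region (4.09%) and 111 in none, and for other tested TAPEs at the same distances 4.40% of 2411 did so in each and 38.7% in none. These 9 were not particular to Mn1, since both Mn1 TAPEs also passed with Srrd, and the one at 298 kb with Hps4. Of the other 4 pairs, chr16:46248196-46250321 with Dctd was about as high over all libraries as the first Mn1 pair (r = 0.85, and 0.78, 0.87 and 0.71 within the regions). The Brca2 TAPE with Brca2 had r = 0.54 (0.74, 0.71 and 0.91 within the regions), the Etl4 TAPE with Etl4 0.58 (0.58, 0.90 and 0.54), and chr3:140420694-140422369 with Ralgapa2 0.53 (0.70, 0.67 and 0.76). Members of the 9 outside the naming rule were named after their values were seen.

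**Figure D5:**
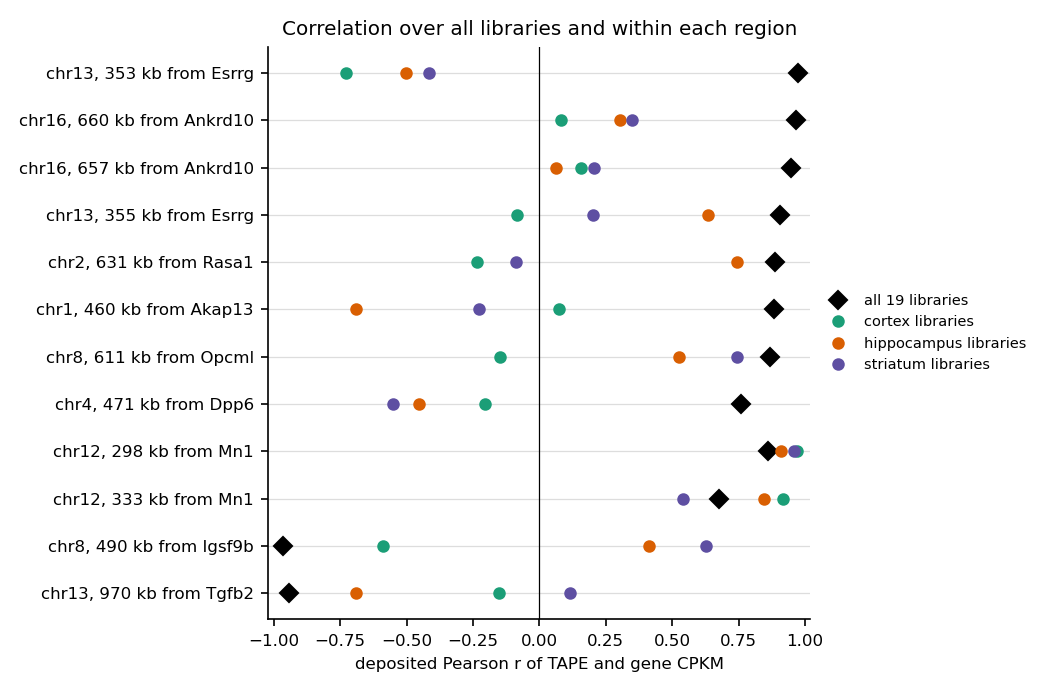
Deposited Pearson r (horizontal axis) of 12 named pairs of desert TAPEs and genes over all 19 libraries (black diamonds) and within cortex (green), hippocampus (orange) and striatum (purple). Diamonds near 0.9 for Esrrg, Ankrd10 and Akap13 come with scattered or negative values within regions, whereas all 4 values for the TAPE 298 kb from Mn1 lie between 0.86 and 0.97.

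The gene with the highest r was the nearest listed one for 50 of 191 tested desert TAPEs (26.2%), where an even choice among each TAPE's genes gives 22.9%. For the other tested TAPEs it was 16.3% against 8.58%. The nearest gene was also the best correlated for the TAPEs named with Mn1 at 298 kb, Akap13, Dpp6, Edem1 and Etl4. Of the desert pairs above 0.5 whose gene profile could be recovered, 148 of 201 from tested TAPEs (73.6%) and 695 of 1465 from TAPEs too shallow to test (47.4%) stayed above 0.5 without each library in turn.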

How the data were processed

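The authors trimmed reads with Trim Galore 0.4.5, aligned them to the Rn6 rat assembly, counted reads over TAPEs on both strands in SeqMonk with duplicates kept, and deposited CPKM values, which are RPKM in unit and not log transformed. The deposited correlation scores are the authors' Pearson r of TAPE and gene CPKM for genes within 1 Mb. Scaled by TAPE length and library size, 100% of CPKM values came out as whole reads (tolerance 0.02 reads), which gave each library's depth. Reads came from paired ends, and 68.9 to 75.2% of nonzero counts per library were even. Limits that take single reads as independent are therefore too low. Reads without molecular identifiers are not independent molecules, so limits from reads cover counting error only. The 1870 TAPEs with a mean of at least 0.05 CPKM were tested on log2(CPKM + 0.05) with limma 3.58.1 (lmFit, eBayes with trend) in R 4.3.3, two-sided, with Benjamini-Hochberg adjustment over all 1870, and the script was tested on simulated data. KCl was tested within each region on that region's libraries, and over the 19 libraries with region as a covariate. Gene levels were not used; standardised gene profiles were solved from deposited correlations for 4056 of 5988 symbols (67.7%). Named TAPEs were all those called for KCl (or the 2 with the smallest p where none passed), the 4 most selective per region, the 3 highest in level, the 4 highest and 2 lowest in r, the 2 most remote, those nearest the 250 kb limit, and those of the 3 intervals with most tested TAPEs. Results that need certain genes, 1 of the 3 intervals among them, are not reported here. The other 2 tested TAPEs of the Mn1 interval were named after their values were seen. Distances are from TAPE centre to start site. The RefSeq order (GRCr8) gave gene names only. The TAPEs and gene lists were chosen with earlier results of these data known. Alternatives were other pseudocounts, filters, centring, limma voom on recovered reads, a replicate block, another distance limit, distance to gene bodies, and leaving out each library.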

Additional observations from a re-analysis of the deposited data

Results flagged for a closer look

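In the striatum vehicle group, the only one with 4 libraries, 1 library stood apart from the other 3 at 6 of the 42 named desert TAPEs checked. At chr1:136553458-136555068 (hippocampus-selective) replicate 6 held 0.0107 CPKM and the others 0, and at chr13:87329893-87331618 (cortex-selective) replicate 8 held 0.020 CPKM and the others 0. At chr10:9915162-9916950 replicate 2 held 0 and the others 0.0193 to 0.0225 CPKM, and at chr2:224288460-224289735 replicate 4 held 0 and the others 0.0270 to 0.0276 CPKM. At chr7:667497-669141 replicate 4 held 0.0367 CPKM against 0.0839 to 0.0856, and at chr7:717769-720624 replicate 2 held 0.111 CPKM against 0.0242 to 0.0302. For continuous, normally distributed values, chance sets apart about 1 in 20 groups. That rate does not hold for low read counts with ties, such as libraries at 0 here. The number of cases is therefore not read as an excess. The 6 cases fall on 4 different libraries.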

How the results depend on the processing

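Counts of called desert TAPEs were recomputed under each alternative. For KCl in cortex, 2 TAPEs became 0 without the filter on low levels, 0 with a limit of 500 kb and 1 with distance taken to gene bodies, and leaving out 1 library gave 1 to 2. For KCl in hippocampus, 0 became 2 with a filter at 0.1 CPKM and 2 in a single fit of 6 groups, and leaving out 1 library gave 0 to 0. For KCl in striatum, 1 became 0 without the filter and 0 at 500 kb, and leaving out 1 library gave 0 to 1. Over the regions, 6 became 3 with centred libraries and 0 at 500 kb, with 3 to 10 when 1 library was left out (10 without cortex vehicle replicate 2, 3 without hippocampus KCl replicate 2). voom gave 9, of which 3 were among the 6, and no filter gave 4. The interaction gave 0, but 1 with a filter at 0.1 CPKM, 1 with a pseudocount of 0.1 and 2 with voom. Region dependence gave 131, and 72 with the higher filter, 377 without one and 28 at 500 kb, where fewer or more TAPEs entered, with 120 to 131 when 1 library was left out, 103 in vehicle libraries alone and 108 with distance to gene bodies. The median log2 KCl difference of -0.11 became -0.17 with a pseudocount of 0.01 and 0.022 with centring. The share of pairs with r above 0.5 (5.62%) was 18.4% among tested TAPEs and 5.26% at 500 kb, and 1.03% exceeded 0.7. No direction of a called TAPE turned under any of these alternatives. Except where the number of TAPEs entered changed, the cause was not tested.

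In cortex and hippocampus, vehicle and KCl libraries of the same replicate number were no more alike than others. Their correlations of deviations ran from -0.042 to 0.014, against -0.029 to 0.033 for different numbers. Striatal vehicle and KCl libraries share no number and could not be checked. With few reads per TAPE, such values cannot show whether libraries shared a preparation. A fit with the replicate number as a block gave 1 TAPE for KCl in cortex, 6 over the regions and 129 for region. Depth limits what can be said: the median desert TAPE had 12 reads over 19 libraries, and 5005 of 5196 were not tested.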
